A study of Mus musculus with 22 samples.

Results

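Glycolysis, the pyruvate dehydrogenase complex and the tricarboxylic acid (TCA) cycle together turn glucose into reducing power and ATP, and the mRNAs of 34 of their enzymes and subunits were followed here in mouse spinal cord. The genes were taken by symbol, as the rows of the deposited expression table whose symbol equals that of the enzyme. The list itself was drawn up with earlier results of these data known. All 34 were found among 17306 genes, and all 34 passed the filter on low values, so none is missing from any count below. They comprise 17 glycolytic genes (Hk1, Hk2, Gpi1, Pfkl, Pfkm, Pfkp, Aldoa, Aldoc, Tpi1, Gapdh, Pgk1, Pgam1, Eno1, Eno2, Pkm, Ldha and Ldhb), 5 genes of the pyruvate dehydrogenase complex (Pdha1, Pdhb, Dlat, Dld and Pdhx) and 12 genes of the TCA cycle (Cs, Idh3a, Idh3b, Idh3g, Ogdh, Dlst, Sucla2, Suclg1, Suclg2, Fh1, Mdh1 and Mdh2).

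The samples were lumbar spinal cord (L4 to L6) of 22 wildtype C57BL6J mice aged 12 to 14 weeks at collection, taken by the study's methods as quadrants on the side of the injected knee. Every mouse, controls included, had received 1 mg of monoiodoacetate (MIA) into a knee, a model of osteoarthritic joint pain, and tissue was taken on day 30, so no mouse without joint disease is part of the comparisons. SAFit2, an inhibitor of the stress-response protein FKBP51, was given at 100 mg/kg in a slow-release phospholipid gel around disease onset (days -3 and 4; Early SAFit2, n = 5) or after pain was established (days 20 and 27; Late SAFit2, n = 5). Gel without drug was given on the same days to Early Vehicle (n = 6) and Late Vehicle mice (n = 6). The titles of the Early SAFit2 samples name a related compound, SAFit1, while their treatment label names SAFit2, and 1 protocol gives the first early day as 3 rather than -3. By their labels the early and the late animals form different batches, and the time of dosing and the batch therefore cannot be told apart in any comparison of late with early mice.

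In glycolysis, hexokinase (Hk1, Hk2) traps glucose in the cell, phosphofructokinase (Pfkl, Pfkm, Pfkp) commits it to the pathway, and the enzymes from aldolase to pyruvate kinase (Pkm) carry the sugar to pyruvate. Lactate dehydrogenase (Ldha, Ldhb) interconverts pyruvate and lactate. The pyruvate dehydrogenase complex makes acetyl-CoA from pyruvate inside mitochondria, and citrate synthase (Cs) feeds it into the TCA cycle. In nervous tissue, neurons are known to depend on mitochondrial oxidation, while astrocytes are known as glycolytic cells and as the main site of aldolase C (Aldoc).

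Between 11352989 and 24433349 reads per mouse were assigned to genes. Values are log2 CPM (reads of a gene per 1000000 reads of its library, on a log2 scale), scaled by the submitters between libraries. Snap25, Mbp and Aqp4, which mark neurons, oligodendrocytes and astrocytes, were read in every mouse. Libraries of the Late SAFit2 group differed in muscle RNA: 10 skeletal muscle genes summed to 269.8 CPM in replicate 3 and 202.7 CPM in replicate 5, against 13.3 to 14.5 CPM in the remaining 3 mice. In whole tissue, fewer cells of a type and less RNA per cell cannot be told apart.

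The 34 mRNAs covered a wide range of levels. Levels were set per kilobase of all annotated exons of a gene together, a length that can exceed that of the mRNA present. The highest mean was that of Aldoc (8.87 log2 CPM per kb), followed by Aldoa (8.74), Ldhb (8.59), cytosolic malate dehydrogenase Mdh1 (8.52) and Pkm (8.46). These neighbours were close: Aldoc exceeded Aldoa in 16 of 22 mice and Ldhb exceeded Mdh1 in 12. The aldolases Aldoc and Aldoa were thus close in level, while the hexokinase and lactate dehydrogenase families each had 1 form well above the other. Mean levels per kb were 5.12 for Hk1 and -0.95 for Hk2, and 7.03 for Pfkm, 4.22 for Pfkp and 3.59 for Pfkl. The gap between Pfkm and Pfkp rests largely on the exon lengths used, 3340 and 13401 bases. Without division by length their means were 8.77 and 7.96 log2 CPM. Ldhb, at 8.59, lay far above Ldha at 5.07. Among succinyl-CoA ligase subunits, the ATP-linked Sucla2 was at 5.91 and the GTP-linked Suclg2 at 2.37, the lowest level in the cycle. Several glycolytic genes, Gapdh, Aldoa, Pgk1, Pgam1 and Ldha among them, have near-identical processed pseudogenes, and how reads matching several places were counted is not given in the sources used here, so levels of these genes are uncertain.

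**Figure D1:**
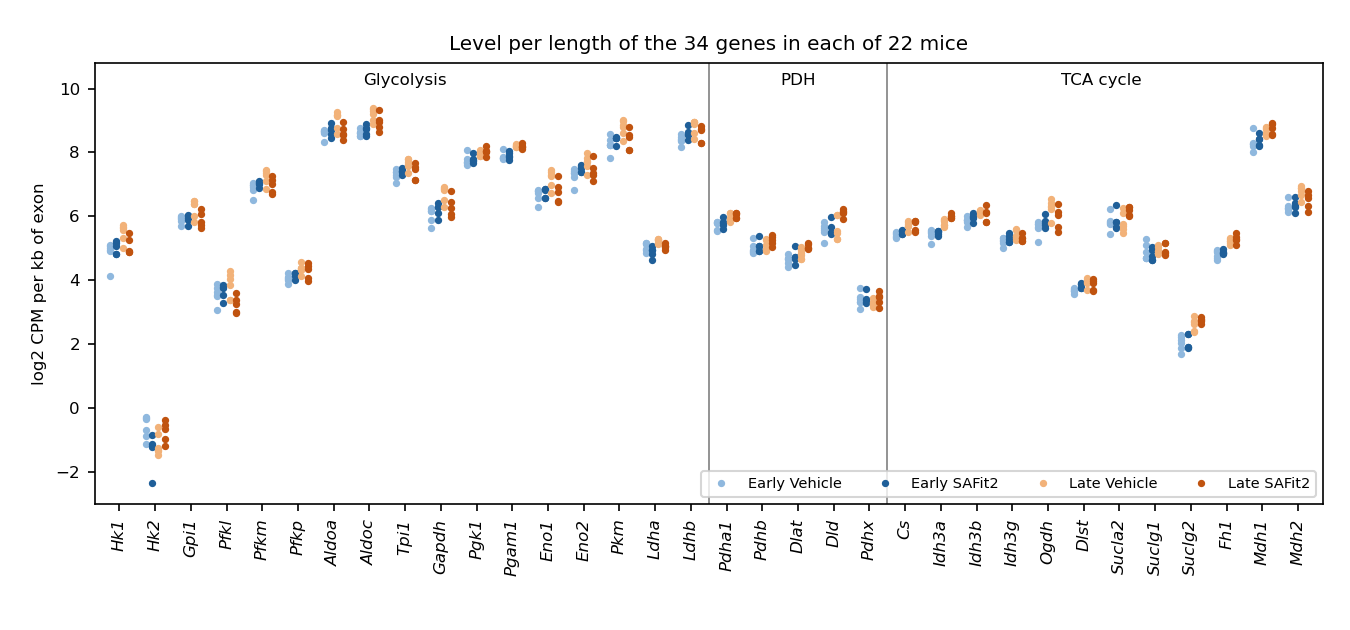
Level of each of the 34 genes in each of 22 mice, in log2 CPM per kb of exon (vertical axis), by gene (horizontal axis) and coloured by group. Aldoc, Aldoa, Ldhb, Mdh1 and Pkm lie at the top, and Hk2 lies far below every other gene.

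Gapdh is widely used as a reference gene in tissue assays. Its standard deviation over the 22 mice was 0.35 log2 units, against a median of 0.26 for genes within 0.5 log2 units of its level. Pgk1, another glycolytic gene of that use, had a standard deviation of 0.16 and Idh3g one of 0.14. Hk2 varied most (0.48), at only 16 to 98 reads per mouse.

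The same values were also read mouse by mouse. The mean deviation of the 17 glycolytic genes from their 22-mouse means ran from -0.04 to 0.40 log2 units in Late Vehicle mice and from -0.38 to -0.05 in Early Vehicle mice. Late Vehicle replicate 6 was the lowest of its group and Early Vehicle replicate 5 the lowest of all 22 mice. Late SAFit2 mice spread from -0.25 to 0.29, spanning most of the range of both vehicle groups.

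**Figure D2:**
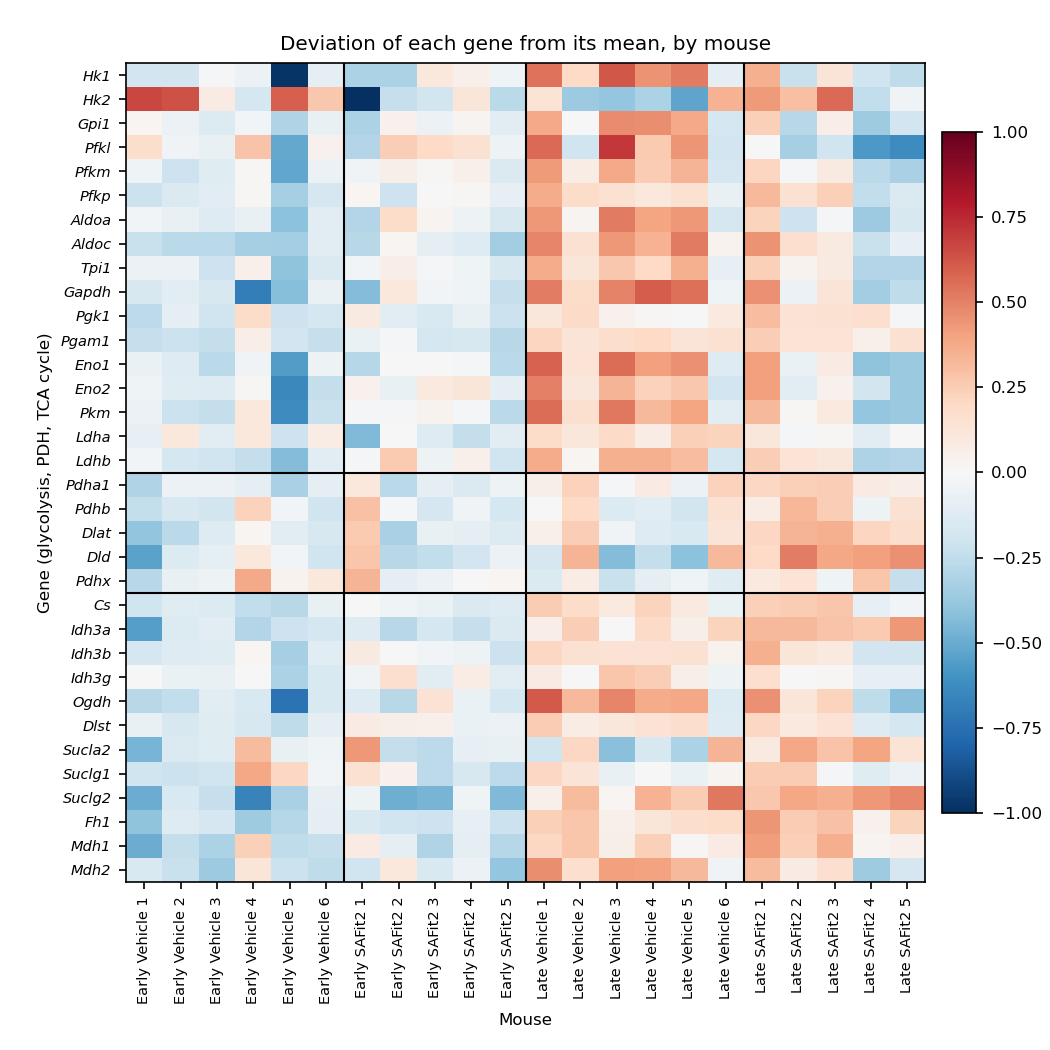
Each gene's log2 CPM minus its mean over the 22 mice (colour; the scale stops at 1 in either direction), by gene (rows, in the order glycolysis, pyruvate dehydrogenase, TCA cycle) and mouse (columns). Most glycolytic and TCA genes are above their mean in Late Vehicle mice, with replicate 6 as the palest glycolytic column of that group.

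The first treatment question was whether SAFit2 given late, near the time of collection, altered these mRNAs. In Late SAFit2 against Late Vehicle, Pfkl, the liver-type phosphofructokinase, was lower and Dld, the dihydrolipoamide dehydrogenase shared by several mitochondrial complexes, was higher, while the other 32 genes did not pass the test. A gene was called where it differed by at least 1.2-fold and the limma test (a moderated linear model across 16765 genes) passed 0.05 after Benjamini-Hochberg adjustment. The 2 called of 34 stand against 12.1% of all genes tested. The median log2 fold change was -0.09 over the 34 genes and -0.05 over all genes tested.

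Pfkl (Entrez 18641, minus strand of chromosome 10, 77986947 to 78010083 in GRCm38) read 6.33, 6.0, 6.13, 5.75 and 5.70 log2 CPM in the 5 Late SAFit2 mice. In the 6 Late Vehicle mice its lowest, median and highest values were 6.13, 6.68 and 7.04. The lowest vehicle values fell among the highest treated ones, so the groups overlapped. The log2 fold change was -0.61 (SE 0.16, 1.53-fold, limma adjusted p = 0.0335), and the exact two-sided permutation test over mice gave p = 0.0216.

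Dld (Entrez 13382, minus strand of chromosome 12, 31331277 to 31351453) read 7.79, 8.11, 7.98, 8.0 and 8.06 in Late SAFit2 and 7.16, 7.39 and 7.93 as lowest, median and highest in Late Vehicle. The groups overlapped here too, through the lowest treated mouse. The log2 fold change was 0.49 (SE 0.14, 1.40-fold, limma adjusted p = 0.0360), and the exact permutation test gave p = 0.0281. Dld was named after its values were seen, since it fell outside the limit of 12 genes set for full statistics.

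Counted over all 34 genes, Pfkl and Dld included, values were below 0 for 15 of 17 glycolytic genes (median -0.25), above 0 for 5 of 5 pyruvate dehydrogenase genes (median 0.16) and split 6 to 6 in the TCA cycle (median 0.01). Unadjusted limma p-values under 0.05 were found for 16 of 34 genes, 47.1%, against 34.5% of all genes tested. Among the 32 genes that did not pass the test, examples on the lower side were Hk1 (-0.41, SE 0.16, limma adjusted p = 0.0755), Eno1 (-0.41, SE 0.15, 0.0591) and Gapdh (-0.40, SE 0.15, 0.0651). On the higher side, Sucla2 had a log2 fold change of 0.35 (SE 0.14, limma adjusted p = 0.0902) and Dlat, the acetyltransferase core of pyruvate dehydrogenase, one of 0.24 (SE 0.10, 0.0971). Idh3a, the catalytic subunit of NAD-linked isocitrate dehydrogenase, was the only member whose groups did not overlap, against 1.71% of all genes tested. It read 8.35, 8.34, 8.31, 8.28 and 8.45 in Late SAFit2 and at most 8.27 in Late Vehicle, but with a log2 fold change of 0.20 (SE 0.09) its limma adjusted p was 0.105.

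The sign of these values tracked the base composition of the transcripts. Across the 34 genes the Pearson correlation between transcript GC content and the late log2 fold change was -0.84, and it was -0.61 over 16213 genes with a GC value. This is a description across genes that share the same 11 libraries. GC content had a median of 53.0% in glycolytic genes, 45.8% in pyruvate dehydrogenase genes and 47.4% in TCA genes. Pfkl, at 57.1%, and Dld, the lowest at 40.6%, lay near the ends of the range. After a smooth trend on GC content and length was removed from each library, none of the 34 genes was called, and neither was any of the 16213 genes (lowest limma adjusted p 0.0910; 2532 had an unadjusted p under 0.05). The log2 fold change of Pfkl was then -0.23 (limma adjusted p = 0.226) and that of Dld 0.08 (limma adjusted p = 0.647). The medians of all 3 steps then lay below 0, as did that of all 16213 genes (-0.04). Values were below 0 for 12 of 17 glycolytic genes (median -0.08), 3 of 5 pyruvate dehydrogenase genes (median -0.01) and 10 of 12 TCA genes (median -0.12). Leaving out any one of Late Vehicle replicates 1, 3, 4 or 5 or Late SAFit2 replicates 2, 4 or 5 also left 0 members called, and between 1 and 8 of all 16765 genes. Without Late SAFit2 replicate 1, 13 members and 21.1% of all genes were called, and without Late Vehicle replicate 6, 13 members and 29.7%. The count was 8 without Late Vehicle replicate 2 (22.6% of all genes) and 6 without Early Vehicle replicate 5 (17.4%).

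**Figure D3:**
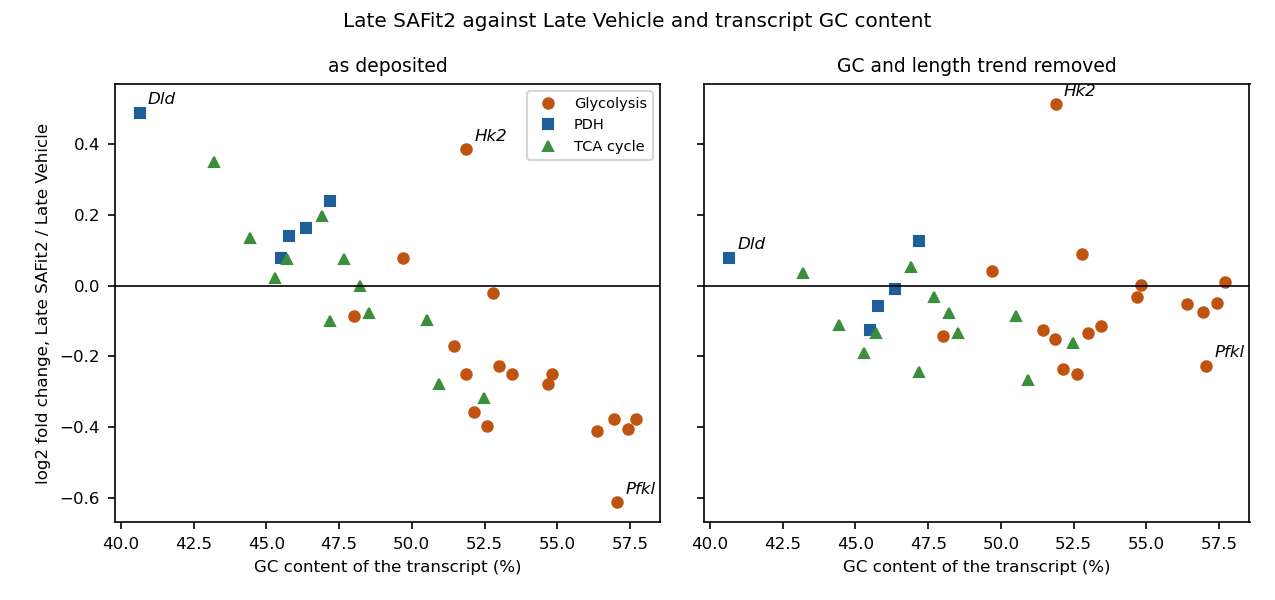
Log2 fold change of each gene in Late SAFit2 against Late Vehicle (vertical axis) by the GC content of its transcript in percent (horizontal axis), as deposited (left) and after the GC and length trend was removed (right), with symbols by step. On the left the values fall from Dld at 0.49 to Pfkl at -0.61. On the right Hk2, an uncalled gene with few reads, stands alone at 0.51 and the others lie within 0.27 of 0.

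The second treatment question concerned SAFit2 given at disease onset and read weeks later. In Early SAFit2 against Early Vehicle, limma called 0 of 34 genes and 0 of 16765 genes (0.0%), and limma voom on the recovered reads also called 0. Unadjusted p was under 0.05 for 1 of 34 genes and for 416 genes in all. That gene was Hk2, the inducible hexokinase, with a log2 fold change of -0.74 (SE 0.27) and an exact permutation p of 0.0152 (limma p = 0.0101, adjusted p = 0.9999 for every member). Hk2 read 0.23, 1.40, 1.45, 1.75 and 1.36 in Early SAFit2, with replicate 1 far below the rest, and 1.45, 2.06 and 2.3 as lowest, median and highest in Early Vehicle. Log2 fold changes were above 0 for 31 of 34 genes, but the other 33 lay between -0.16 and 0.21, with a median over all 34 of 0.08 against 0.01 over all genes tested. Dlst, the succinyltransferase of the oxoglutarate dehydrogenase complex, was the only member without overlap, against 0.352% of genes tested. It read 7.16, 7.14, 7.14, 7.02 and 7.03 in Early SAFit2 and at most 7.01 in Early Vehicle, a log2 fold change of 0.16 (SE 0.09, limma p = 0.0844; the exact permutation test over mice gave 0.002165).

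The difference between the early and late effects was tested directly as an interaction. It was called for 0 of 34 genes and 0 of 16765 (0.0%) by limma, and for 0 members by limma voom. At an unadjusted p under 0.05 there were 14 of 34 members, 12 of them glycolytic, against 4167 genes in all (24.9%). The largest sizes were those of Hk2 (early minus late effect -1.13, SE 0.38, limma adjusted p = 0.120) and Pfkl (0.69, SE 0.23, 0.120). After removal of the GC and length trend, none of 16213 genes was called, and 2082 had an unadjusted p under 0.05. Pfkl then had a value of 0.23 (limma adjusted p = 0.4375) and Hk2 one of -1.32 (limma adjusted p = 0.2938). With Late Vehicle replicate 6 left out, 11 members were called, against 2513 of all genes tested (15%).

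Dosing time was compared first in the vehicle groups; the Late Vehicle mice are the ones already used in the late treatment comparison. In Late Vehicle against Early Vehicle, 18 of 34 genes were called and all 18 were higher in the late mice, against 3.29% of all genes tested called higher and 9.11% called in either direction. The median log2 fold change was 0.34 over the 34 genes and 0.01 over all genes tested. By step, 11 of 17 glycolytic genes, 0 of 5 pyruvate dehydrogenase genes and 7 of 12 TCA genes were called. In 9 of 34 genes the 6 late and 6 early mice did not overlap, against 4.92% of all genes tested. As late and early mice came in different batches, none of these differences can be told apart from the batch.

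In glycolysis, Gapdh (Entrez 14433, minus strand of chromosome 6, 125161715 to 125166467) had the largest value. Its lowest, median and highest levels were 7.68, 8.21 and 8.30 log2 CPM in Early Vehicle and 8.34, 8.88 and 8.98 in Late Vehicle, with no overlap. The log2 fold change was 0.65 (SE 0.14, 1.57-fold, limma adjusted p = 0.00346). Hk1 (Entrez 15275, minus strand of chromosome 10, 62268855 to 62379908), the main brain hexokinase, read 7.23, 8.07 and 8.20 in Early Vehicle and 8.12, 8.70 and 8.84 in Late Vehicle. These groups overlapped, and the log2 fold change was 0.63 (SE 0.15, limma adjusted p = 0.00914).

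Aldoc (Entrez 11676, plus strand of chromosome 11, 78322968 to 78327781) read 10.23, 10.30 and 10.46 in Early Vehicle and 10.61, 10.96 and 11.09 in Late Vehicle. All late mice lay above all early ones, and the log2 fold change was 0.59 (SE 0.12, limma adjusted p = 0.00173). Its partner Aldoa, the aldolase of muscle and most other tissues, had a log2 fold change of 0.41 (SE 0.13, limma adjusted p = 0.0403). Eno1 (Entrez 13806, plus strand of chromosome 4, 150236721 to 150248879), the ubiquitous enolase, read 8.72, 9.18 and 9.24 in Early Vehicle and 9.15, 9.71 and 9.87 in Late Vehicle, a log2 fold change of 0.52 (SE 0.14, limma adjusted p = 0.0177) with overlap. Its neuronal counterpart Eno2 just missed the threshold (0.40, SE 0.13, limma adjusted p = 0.0503).

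Pgam1 (Entrez 18648, plus strand of chromosome 19, 41911923 to 41918660), the phosphoglycerate mutase of brain, had a modest difference but was tight within groups. It read 8.79, 8.81 and 9.10 in Early Vehicle and 9.15, 9.19 and 9.24 in Late Vehicle, with no overlap (log2 fold change 0.34, SE 0.08, limma adjusted p = 0.00688). Pkm, Ldhb, Pfkm, Tpi1 and Pfkp were also called, with log2 fold changes of 0.52, 0.40, 0.37, 0.34 and 0.31. Gpi1, Pfkl, Pgk1, Eno2 and Ldha had values between 0.19 and 0.40 that did not pass. Hk2 alone among glycolytic genes was below 0 (-0.53, SE 0.25, limma adjusted p = 0.199).

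In the TCA cycle the largest value was that of Ogdh (Entrez 18293, plus strand of chromosome 11, 6291633 to 6356642), the first subunit of the oxoglutarate dehydrogenase complex. It read 7.63, 8.17 and 8.27 in Early Vehicle and 8.23, 8.75 and 8.99 in Late Vehicle, overlapping slightly (log2 fold change 0.62, SE 0.14, limma adjusted p = 0.00542). Suclg2 (Entrez 20917, minus strand of chromosome 6, 95473009 to 95718800) read 3.91, 4.30 and 4.49 in Early Vehicle and 4.59, 4.86 and 5.10 in Late Vehicle, with no overlap (0.58, SE 0.12, limma adjusted p = 0.00346). Sucla2, the alternative beta subunit, had a value of 0.00 (SE 0.14), and the shared subunit Suclg1 one of 0.04 (SE 0.11).

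Mdh2 (Entrez 17448, plus strand of chromosome 5, 135778480 to 135790398), the mitochondrial malate dehydrogenase, read 7.96, 8.11 and 8.44 in Early Vehicle and 8.28, 8.68 and 8.78 in Late Vehicle (0.47, SE 0.12, limma adjusted p = 0.0110). Fh1 (Entrez 14194, minus strand of chromosome 1, 175600374 to 175625635), the fumarase, read 6.41, 6.59 and 6.72 against 6.86, 6.99 and 7.09, without overlap, and had the lowest p of the 34 (0.41, SE 0.08, limma adjusted p = 0.00171). Idh3a (Entrez 67834, plus strand of chromosome 9, 54586334 to 54604661) read 7.47, 7.83 and 7.91 against 8.02, 8.15 and 8.27, also without overlap (0.38, SE 0.08, limma adjusted p = 0.00407). Cs (Entrez 12974, plus strand of chromosome 10, 128337734 to 128362479) read 7.84, 7.95 and 8.04 against 8.05, 8.26 and 8.38, separated by a narrow gap (0.31, SE 0.08, limma adjusted p = 0.0190). Mdh1 was called as well (0.36, SE 0.11, limma adjusted p = 0.0416).

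Pyruvate dehydrogenase genes stood lower in this comparison. Their log2 fold changes ran from -0.11 for Pdhx to 0.24 for Pdha1 (SE 0.08, limma adjusted p = 0.0671), with a median of 0.09. Pdha1, the E1 alpha subunit, and Idh3b were nonetheless among the 9 genes whose vehicle groups did not overlap.

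**Figure D4:**
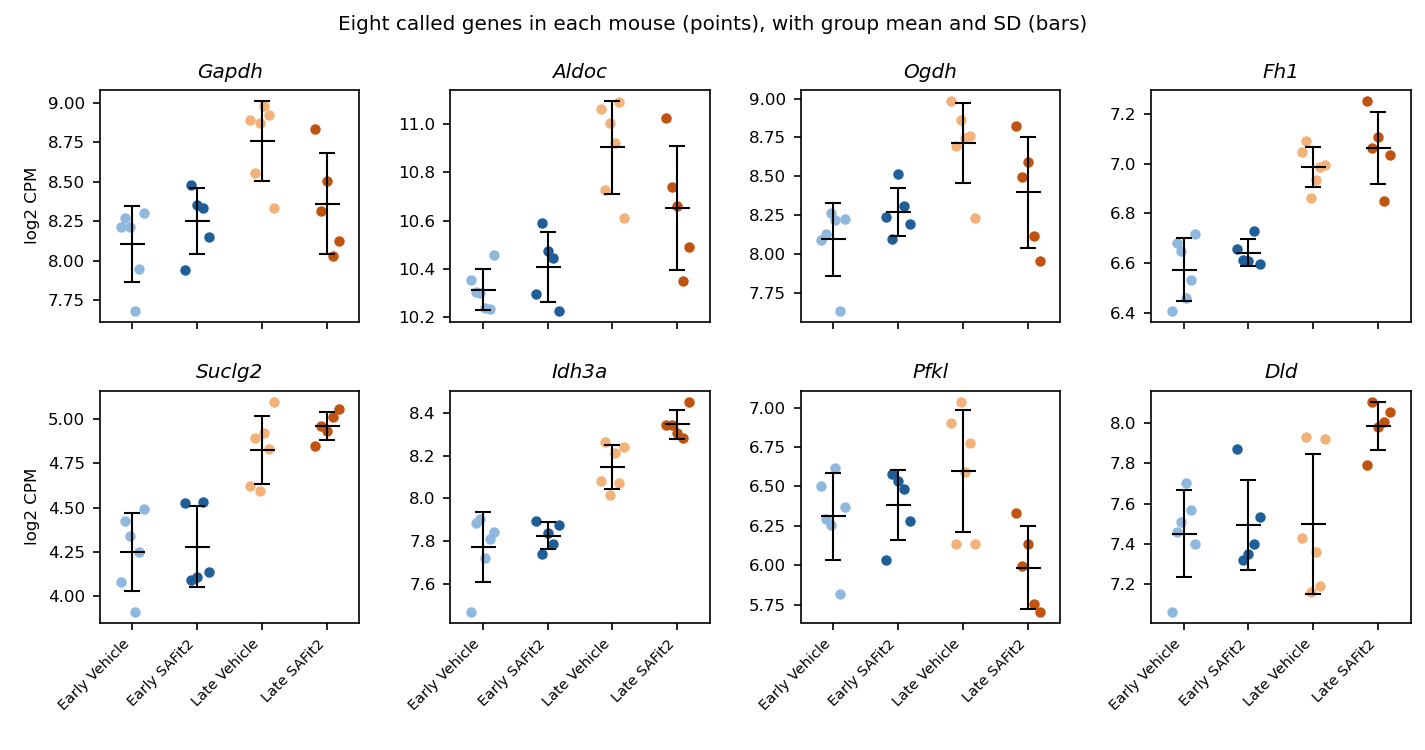
Level of 8 called genes in each mouse, in log2 CPM (vertical axis), by group (horizontal axis). Points are mice and bars the group mean and SD; Gapdh, Aldoc, Fh1, Suclg2 and Idh3a do not overlap between the vehicle groups, whereas Pfkl and Dld separate Late SAFit2 only in part from Late Vehicle.

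All 18 genes were again called after removal of the GC and length trend, together with Eno2, Gpi1, Idh3b and Pdha1. Over the 16213 genes with a GC value that removal moved the calls from 547 higher and 923 lower to 1236 higher and 1314 lower, 15.7% in all. Under quantile normalization, which forces every library to the same distribution of values, 3 of the 18 were called (Fh1, Gapdh and Suclg2), and the median over the 34 genes was 0.14. In that fit 6.94% of all genes were called (325 genes higher and 839 lower), beside 3 of 34 members. Without Late Vehicle replicate 1 the count was 9 (5.63% of all genes), and it was 11 without Late Vehicle replicate 3 (6.64%) or Early Vehicle replicate 5 (6.43%).

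Markers of other cells moved in the same comparison. The 6 astrocyte markers were all above 0, with Slc1a2 and Gja1 called, and summed to 3355 to 4427 CPM in Early Vehicle and 4386 to 5295 CPM in Late Vehicle. Of 6 markers each, 1 was called for neurons (Tubb3) and 1 for oligodendrocytes (Cnp), and 0 for microglia, whose sum was 159.9 to 203.1 CPM in Early Vehicle and 200.9 to 238.3 in Late Vehicle. Pecam1 was called of 5 endothelial and mural markers and Hbb-bs of 4 red cell genes in the table. No marker was called among skeletal muscle (10 in the table), ependymal (4), motor neuron (4), Schwann cell (3) and oligodendrocyte precursor genes (2). The part of these cells in the enzyme differences was not tested.

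The mice given SAFit2 allow a related contrast of late with early dosing, in animals that share no library with the vehicle groups. It differs from the vehicle contrast, because the late mice received drug shortly before collection and the early mice weeks before it. Time since the drug, time of dosing and batch therefore cannot be told apart here. This comparison was added after the values were seen. In Late SAFit2 against Early SAFit2, 7 of 34 genes were called and all 7 were higher in late mice, against 9.2% of all genes tested called higher and 20.5% called in either direction. Groups did not overlap in 4 of 34 genes, against 14.5% of genes tested. The median over the 34 genes was 0.14, and over all genes tested -0.07. Of the 18 genes called between vehicle groups, 5 (27.8%) were called here, namely Fh1, Idh3a, Mdh1, Pgam1 and Suclg2, which make 71.4% of the 7. The rest of the 7 were Dlat (0.33, SE 0.11, limma adjusted p = 0.0279) and Dld (0.49, SE 0.15, 0.020). The same overlap was not computed over all genes tested. These percentages therefore cannot show whether the enzyme genes were called again more often than other genes. The batch differs between late and early mice in both contrasts.

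Suclg2 read 4.53, 4.09, 4.11, 4.53 and 4.13 in Early SAFit2 and 4.85, 4.96, 4.93, 5.01 and 5.05 in Late SAFit2, a log2 fold change of 0.68 (SE 0.13, limma adjusted p = 0.00138). Idh3a read 7.89, 7.74, 7.84, 7.79 and 7.88 against 8.35, 8.34, 8.31, 8.28 and 8.45 (0.52, SE 0.09, limma adjusted p = 0.000408). Fh1 read 6.66, 6.61, 6.61, 6.73 and 6.60 against 7.25, 7.07, 7.11, 6.85 and 7.03 (0.42, SE 0.09, limma adjusted p = 0.00238). Every late mouse lay above every early mouse in all 3 genes, and in Pgam1 as well (0.28, SE 0.09, limma adjusted p = 0.0219).

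In glycolysis only Pgam1 of 17 genes was called, the median was 0.04, and 8 of 17 were below 0. Gapdh read 7.94, 8.48, 8.35, 8.33 and 8.15 in Early SAFit2 and 8.84, 8.31, 8.51, 8.03 and 8.12 in Late SAFit2, a log2 fold change of 0.11 (SE 0.15, limma adjusted p = 0.636). Hk1 (0.07, SE 0.17), Eno1 (0.04, SE 0.15) and Pkm (-0.01, SE 0.16) lay near 0 as well. The 12 TCA genes were all above 0, with a median of 0.18 and 4 called, and so were all 5 pyruvate dehydrogenase genes, with a median of 0.26 and 2 called. After removal of the GC and length trend, 8 genes were called, of which Fh1, Idh3a, Pgam1 and Suclg2 belong to the 7, and Aldoc, Eno1, Hk1 and Pkm were added, against 15.6% of 16213 genes. The order of the steps turned round: 15 of 17 glycolytic genes were then above 0 (median 0.16, 5 called), against 3 of 5 pyruvate dehydrogenase genes (median 0.06, 0 called) and 8 of 12 TCA genes (median 0.10, 3 called). Without Early SAFit2 replicate 3 the count was 3 (13.1% of all genes), and it was 4 without Early SAFit2 replicate 2 (13.9%) or replicate 5 (16.2%). Under quantile normalization it was 4, against 16% of all genes.

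Cell markers moved between the SAFit2 groups too. The sum of the 6 astrocyte markers was 2957 to 3892 CPM in Early SAFit2 and 4802 to 5864 CPM in Late SAFit2, and 4 of the 6 were called higher. The 6 microglial markers were all above 0 with 2 called, and summed to 155.5 to 182.8 CPM in Early SAFit2 and 186.9 to 226.9 CPM in Late SAFit2, without overlap. Of the ependymal markers 2 of 4 were called higher, and 1 each of 6 neuronal, 6 oligodendrocyte and 10 skeletal muscle markers. No marker of the remaining lists was called. The part of these cells in the enzyme values was not tested.

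**Figure D5:**
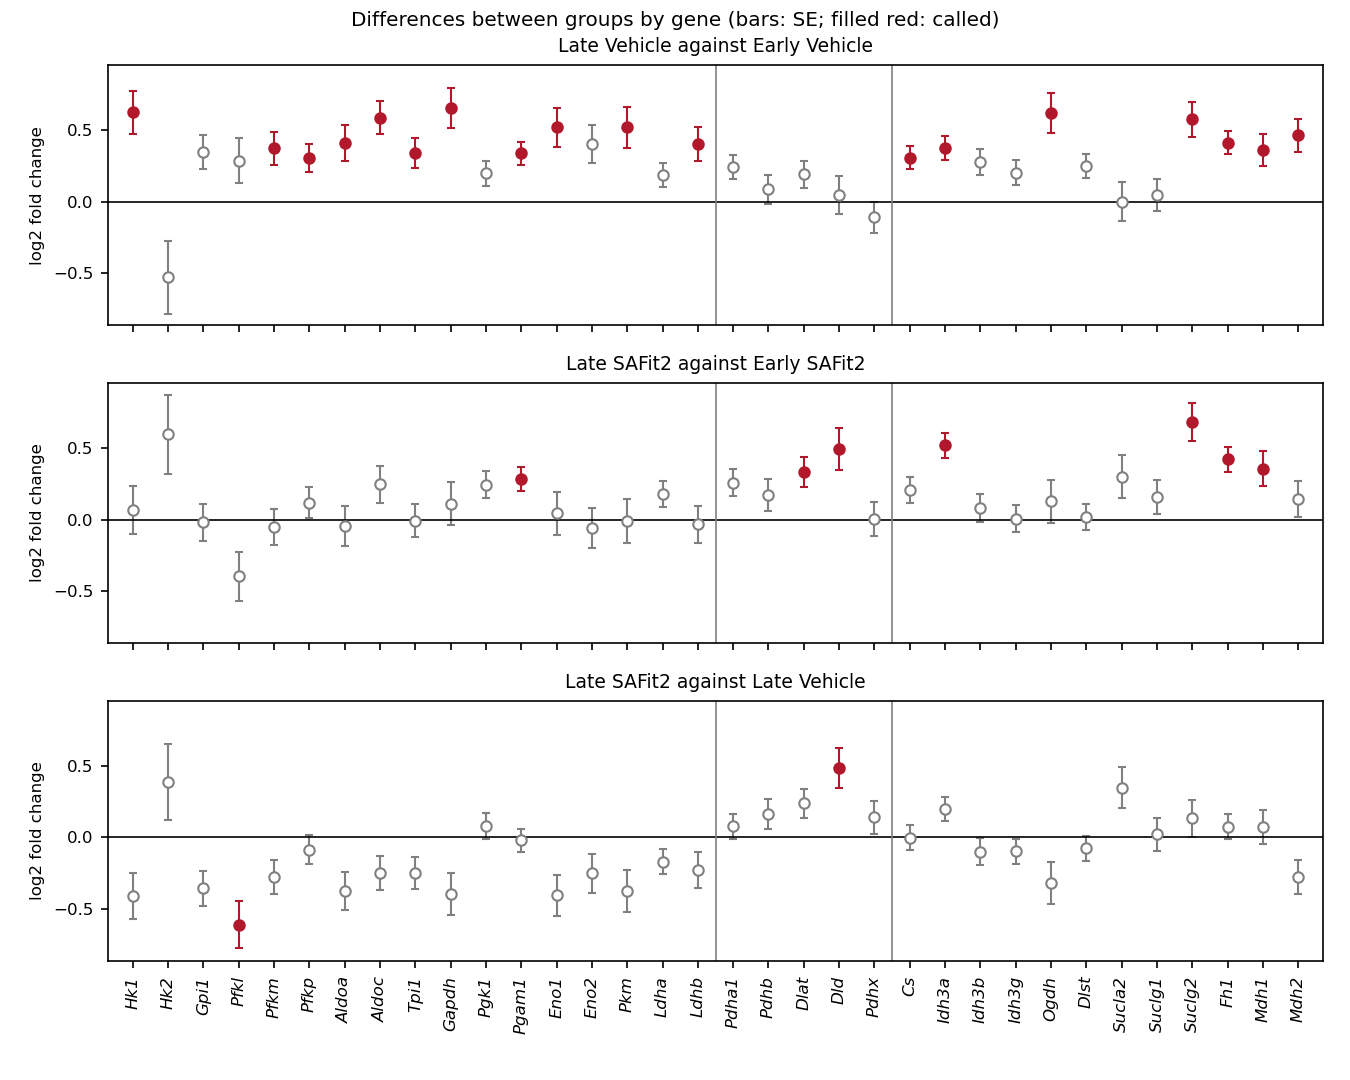
Log2 fold change of each gene (points, with SE bars; red where called) in 3 comparisons, by gene (horizontal axis; vertical lines divide glycolysis, pyruvate dehydrogenase and TCA cycle). Between vehicle groups 18 genes are red and above 0, between SAFit2 groups 7, and in Late SAFit2 against Late Vehicle only Pfkl (below 0) and Dld (above 0).

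The promoters of the enzyme genes were read for shared letters, whether or not the gene was called. RefSeq promoter sequences (GRCm38.p6) matched 33 of 34 genes by symbol, Idh3a being the exception, and the 250 bases before each annotated start were searched on both strands. The core of the hypoxia response element, ACGTG, lay in at least 1 promoter of 11 of 33 genes (33.3%), 7 of them glycolytic, against 18.5% of 27025 genes with a promoter sequence. The E-box CACGTG, which contains that core, lay in 3 of 33 (9.09%) against 6.86% of all. The letters AAGGTCA, read by oestrogen-related receptors, lay in 1 of 33 (Eno1) against 4.7%. A match describes letters only. A few promoters are shown, with matches to ACGTG on either strand in capitals. Pgam1 is a gene called between both pairs of late and early groups with a match, and Fh1 one called in both without a match. Ldha has the single promoter with most matches (5, each CACGTG counting on both strands). Its log2 fold change between vehicle groups was 0.19 (limma adjusted p = 0.159). The promoters shown cover chr19:41911621-41911870 (plus strand), chr1:175625636-175625885 (minus strand) and chr7:46845554-46845803 (plus strand).
Pgam1: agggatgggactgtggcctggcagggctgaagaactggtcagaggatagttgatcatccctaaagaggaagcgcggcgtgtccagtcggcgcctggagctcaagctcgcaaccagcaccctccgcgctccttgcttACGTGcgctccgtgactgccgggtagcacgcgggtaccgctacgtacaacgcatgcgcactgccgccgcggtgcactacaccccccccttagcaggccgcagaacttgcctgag
Fh1: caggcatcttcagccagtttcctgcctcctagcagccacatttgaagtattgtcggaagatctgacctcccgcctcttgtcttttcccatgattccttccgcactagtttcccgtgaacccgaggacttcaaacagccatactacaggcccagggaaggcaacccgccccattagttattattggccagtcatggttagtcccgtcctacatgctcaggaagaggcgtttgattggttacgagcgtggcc
Ldha: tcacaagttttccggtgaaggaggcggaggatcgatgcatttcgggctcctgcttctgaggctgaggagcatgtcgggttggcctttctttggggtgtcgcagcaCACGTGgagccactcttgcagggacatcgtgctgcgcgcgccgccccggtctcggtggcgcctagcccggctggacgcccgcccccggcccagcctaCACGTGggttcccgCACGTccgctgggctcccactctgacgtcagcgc

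Switches between isoforms and subunits were tested as log2 ratios within each mouse, which do not depend on library scaling. Some 11 ratios in the late and the early treatment comparison gave 22 tests, and none had a Benjamini-Hochberg adjusted p under 0.05 in the exact permutation test over mice (lowest adjusted p 0.0816). The ratio of Hk1 to Hk2 was 6.34 ± 0.24 (SD, n = 5) in Late SAFit2 and 7.14 ± 0.55 (SD, n = 6) in Late Vehicle, an exact permutation p of 0.0260. In the early comparison it was 6.87 ± 0.48 in Early SAFit2 and 5.98 ± 0.62 in Early Vehicle (exact permutation p = 0.0238), the opposite direction. Pfkl to Pfkp was -2.04 ± 0.08 in Late SAFit2 and -1.51 ± 0.33 in Late Vehicle, and Ldha to Ldhb was -2.64 ± 0.20 in Early SAFit2 and -2.27 ± 0.14 in Early Vehicle. Idh3b to Idh3g differed by 0.00 in both comparisons.

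A list of 86 neighbouring pathway genes (glucose and lactate transport, other isoforms, regulators, the remaining TCA genes, shuttles and the pentose phosphate pathway) was read beside the enzymes, and 82 of them passed the filter on low values. In Late SAFit2 against Late Vehicle, 5 of 82 were called, against 12.1% of all genes tested. Ppargc1a, the coactivator known for mitochondrial biogenesis, was higher (log2 fold change 0.47, SE 0.15, limma adjusted p = 0.0466), as was cytosolic isocitrate dehydrogenase Idh1 (0.34, SE 0.10, 0.0399). Pcx, the pyruvate carboxylase that refills the cycle (-0.64, SE 0.19, 0.0382), Pdk2, a kinase that inhibits pyruvate dehydrogenase (-0.41, SE 0.13, 0.0460), and the transketolase Tkt (-0.45, SE 0.15, 0.0480) were lower. After removal of the GC and length trend none of the 16213 genes with a GC value was called in this comparison, so these calls were lost as well. In Early SAFit2 against Early Vehicle limma called 0 of 82, with 4 at an unadjusted p under 0.05.

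Between vehicle groups 18 of 82 were called, 15 of them higher in late mice, against 9.11% of all genes tested called and 3.29% called higher. They included Got2 of the malate-aspartate shuttle (0.52, SE 0.11, limma adjusted p = 0.00297), Gpd1 of the glycerol phosphate shuttle (0.55, SE 0.13, 0.00914) and Glud1, the glutamate dehydrogenase (0.37, SE 0.09, 0.0129). Succinate dehydrogenase, which links the cycle to the respiratory chain, had Sdha (0.28) and Sdhc (0.30) called of its subunits. Genes lower in late mice included Pfkfb2, which makes the activator of phosphofructokinase (-0.60, SE 0.13, limma adjusted p = 0.00474) and Dhtkd1 (-1.04, SE 0.33, 0.0485). Between SAFit2 groups 14 of 82 were called, 9 higher and 5 lower, a share near that of all genes tested (20.5% called, 9.2% called higher). Among them were Idh1 (0.63, SE 0.11, limma adjusted p = 0.000367), Hif1a, the hypoxia-response factor (0.70, SE 0.14, 0.00154), Glud1 (0.48, SE 0.10, 0.00256) and Dhtkd1 (-1.91, SE 0.37, 0.00107).

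Cell markers also moved in Late SAFit2 against Late Vehicle. The neuronal gene Map2 and the muscle gene Tnnt3 were called higher, and Cldn5 of endothelium, Foxj1 of ependyma and the muscle myosin Myh7 lower. None of these calls was left after removal of the GC and length trend. Of the 6 neuronal markers 4 were above 0 and 2 below, with log2 fold changes from -0.51 to 0.52. Together they summed to 4419 to 5744 CPM in Late Vehicle and 5424 to 6243 CPM in Late SAFit2, with overlap. The 10 skeletal muscle genes summed to 14.1 to 22.5 CPM in Late Vehicle and 13.3 to 269.8 in Late SAFit2. No marker was called for astrocytes, oligodendrocytes, oligodendrocyte precursors, microglia, red cells, motor neurons or Schwann cells. Without Late SAFit2 replicate 3, which had the highest muscle sum, the same number of enzyme genes, 2, was called (8.2% of all genes). Without replicate 2, 4 or 5 no enzyme gene was called, and only 1, 8 and 1 of all genes were. Without replicate 1 the count was 13 (21.1% of all genes). Replicates 1, 2 and 4 had muscle sums of 13.3 to 14.5 CPM. Their Schwann cell sums were 489.6, 129.7 and 2102 CPM, against 1529 and 3936 CPM in replicates 3 and 5. The part of these cells in the enzyme values was not tested.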

How the data were processed

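RNA from 22 L4 to L6 spinal cord samples was sequenced by the authors with a directional kit, trimmed with Trimmomatic, aligned to mm10 with HISAT2 and counted per gene, per the labels and the study's methods (versions are not given in the sources used here). The deposited values are log2 CPM after scaling by the trimmed mean of M-values, with a small offset added to each count. Whole reads came back for 100% of values to within 0.02 reads. From there limma (3.58.1, R 4.3.3) fitted 4 group means with a variance trend to 16765 genes at or above -1 log2 CPM in at least 5 libraries; calls needed an adjusted p under 0.05 and a fold of 1.2. Replicates are mice. Fully described were the members called in any of the first 4 comparisons, up to 12 by lowest p. Exact permutation tests used 462 (5 against 6 mice), 924 or 252 splits. GC content and lengths came from GENCODE transcripts of GRCm38, and a loess trend on both was removed per library as an alternative, beside other filters, offsets, scalings, weights, a replicate block and each library left out. The script was tested on simulated data. The members, lists and neighbouring genes were chosen with earlier results of these data known. Python 3.11.15, numpy 2.4.6, pandas 2.3.3 and matplotlib 3.10.9 were used. Some genes of the neighbouring and marker lists are not reported here.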

Additional observations from a re-analysis of the deposited data

Results flagged for a closer look

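Of 136 combinations of gene and group, 10 held a mouse whose gap to its nearest neighbour exceeded the 95% limit of Dixon's test for its group; chance flags about 1 in 20. Early Vehicle replicate 5 was lowest for Hk1 (7.23 log2 CPM, the next mouse at 8.02), Aldoa (9.88, next 10.15) and Ogdh (7.63, next 8.09). Early Vehicle replicate 4 was highest for Pgam1 (9.10, next 8.84) and Mdh1 (10.11, next 9.65). Early SAFit2 replicate 1 was lowest for Hk2 (0.23, next 1.36) and highest for Pdhx (5.69, next 5.37) and Sucla2 (8.34, next 7.84). Early SAFit2 replicate 5 was lowest for Pkm (10.52, next 10.77), and Late Vehicle replicate 6 for Idh3b (7.82, next 7.92).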

How the results depend on the processing

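Shares in brackets are those of all genes called in the same fit. In Late SAFit2 against Late Vehicle the count of 2 (12.1%) became 12 at an unadjusted p under 0.05 with the 1.2-fold limit (5530 genes), 4 with the stricter filter (18.3%), 16 with library weights (38.1%) and 7 with the replicate block (18.8%). It was 0 without a variance trend (0.37%), 0 with only the 11 mice of the comparison (0%), 0 with the GC and length trend removed (0%) and 0 with that removal plus the replicate block (0%). Same-numbered mice share only a number (correlations of their deviations from -0.236 to 0.317, with 3 of 20 mice correlating best with their own number), so these blocked fits pair nothing in the design. An unadjusted p with the fold limit gave 1 gene in Early SAFit2 against Early Vehicle and 14 for the early minus late effect, for which library weights gave 17 (30.3%). Late Vehicle against Early Vehicle had 3 under quantile normalization (6.94%) and 24 with library weights (30.2%), and Late SAFit2 against Early SAFit2 had 4 (16%) and 13 (30.8%). The cause was not tested. With 1 library left out, counts ran from 0 to 13 (late), 0 to 0 (early), 0 to 11 (early minus late), 9 to 22 (vehicle groups) and 3 to 10 (SAFit2 groups). The isoform ratios stayed at 0 in every setting run; in the replicate block 5 pairs allow no p below 0.0625. Among single called genes none changed sign in any setting. Apart from left-out libraries, 241 of the 270 repeats between vehicle groups, 94 of 105 between SAFit2 groups and 22 of 30 in the late comparison kept the call. The SAFit2 group contrast and the fit on genes with a GC value without correction were added after the values were seen. Hk2, at 16 to 98 reads, is limited by depth.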
